A study of Glycine max with 32 samples.

Results

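The transcripts of 6 soybean genes of carbon fixation, 4 for Rubisco activase (RCA) and 2 for the small subunit of Rubisco (RBCS), were followed through all 32 leaf libraries of the experiment. They were chosen by gene identifier from the 52875 genes of the count table: Glyma.02G249600, Glyma.14G067000, Glyma.11G221000 and Glyma.18G036400 as RCA, and Glyma.13G046200 and Glyma.19G046800 as RBCS. The family names came with the list of identifiers, and they were not checked here against an annotation. The rule of choice is the list of identifiers and sets no threshold on a measured value, though the list was drawn up with earlier results of these data known.

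Leaves were sampled in the morning from field plots in which the air was either left at a[CO2], 410 µmol mol-1, or fumigated to e[CO2], 600 µmol mol-1. Each of the 8 plots, called rings, held a sub-plot of wild type soybean (WT) and a sub-plot of VPZ-34A. Both were sampled once at the vegetative stage V4–V5 in July and once at the reproductive stage R5–R6, which the study also calls R6. VPZ-34A is a transgenic event of the WT cultivar, Maverick, that overexpresses the Arabidopsis genes AtVDE, AtPsbS and AtZEP, which act in the xanthophyll cycle and in photoprotective quenching. It is 1 event, so that the line effect also carries whatever else distinguishes that event. The ring numbers are the replicate numbers R1 to R8 of the labels, each read here as 1 plot that was the same at both stages. Rings 1, 2, 4 and 7 were at a[CO2] and rings 3, 5, 6 and 8 at e[CO2], which gave 4 libraries, 1 per ring, for each of the 8 groups of stage, line and CO2. Per the study's methods, leaf disks from several plants of a plot were pooled into a sample.

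Rubisco joins CO2 to ribulose bisphosphate and so starts the Calvin cycle. In land plants the enzyme is built from large subunits, encoded in the chloroplast, and small subunits, encoded by a family of nuclear genes and imported into the chloroplast. Its active site can be blocked by sugar phosphates, and Rubisco activase, a nuclear-encoded AAA+ ATPase, uses ATP to remodel the enzyme and release them. Rubisco and its activase are among the most abundant proteins of a leaf, and the transcripts of both families are among the most abundant nuclear messages of leaf cells.

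The libraries held 16091207 to 63132399 estimated counts, and the lowest count of any of the 6 genes in any library was 7957, for Glyma.14G067000, so that counting error alone (1 SD of a count) was at most 1.12% of a value and the spread between rings set the precision. Levels are given as CPM, counts scaled to a common library size with the factors of the TMM method, a trimmed mean of log ratios between libraries. All 6 genes had values that were not whole numbers in 29 to 32 of the 32 libraries, because reads with several alignments had been shared between loci, and reads from near-identical copies may have been divided. CPM values are not corrected for transcript length, so that a level is compared between stages and treatments and not between genes. The line labels matched the transgenes, whose CPM was at most 0.826 in any WT library and at least 51.2 in any VPZ-34A library.

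The RBCS genes had the larger difference between stages. Glyma.13G046200 was 5.13 times lower at R5–R6 than at V4–V5 and Glyma.19G046800 was 4.09 times lower, while 2 of the RCA genes fell less, Glyma.02G249600 by 1.73 times and Glyma.14G067000 by 1.38 times. The 2 RCA genes with the most reads, Glyma.11G221000 and Glyma.18G036400, were 1.22 and 1.24 times lower at R5–R6 and did not pass the test. Thus 4 of the 6 genes passed at an adjusted p under 0.05, all of them lower at R5–R6. In the same test 37.7% of the 35639 genes tested were lower at R5–R6, so that a call in this direction was common. By size, 7.34% of all genes tested had a lower log2 fold change (log2FC) than Glyma.13G046200 and 8.73% had a lower one than Glyma.19G046800. The RCA genes lay further inside the distribution, with 21.6% of genes below Glyma.02G249600, 29.8% below Glyma.14G067000, 36.1% below Glyma.11G221000 and 35.4% below Glyma.18G036400. The 95% intervals of the RBCS genes, -2.66 to -2.06 and -2.31 to -1.75, lay below those of all RCA genes, the lowest of which began at -0.99. The median log2FC was -0.63 over the 6 genes and 0.01 over all genes tested. Each stage was sampled on 1 date, and so the stage and the conditions of its date cannot be told apart. In leaf RNA, fewer cells that express a gene and less RNA per cell cannot be told apart either.

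**Figure D1:**
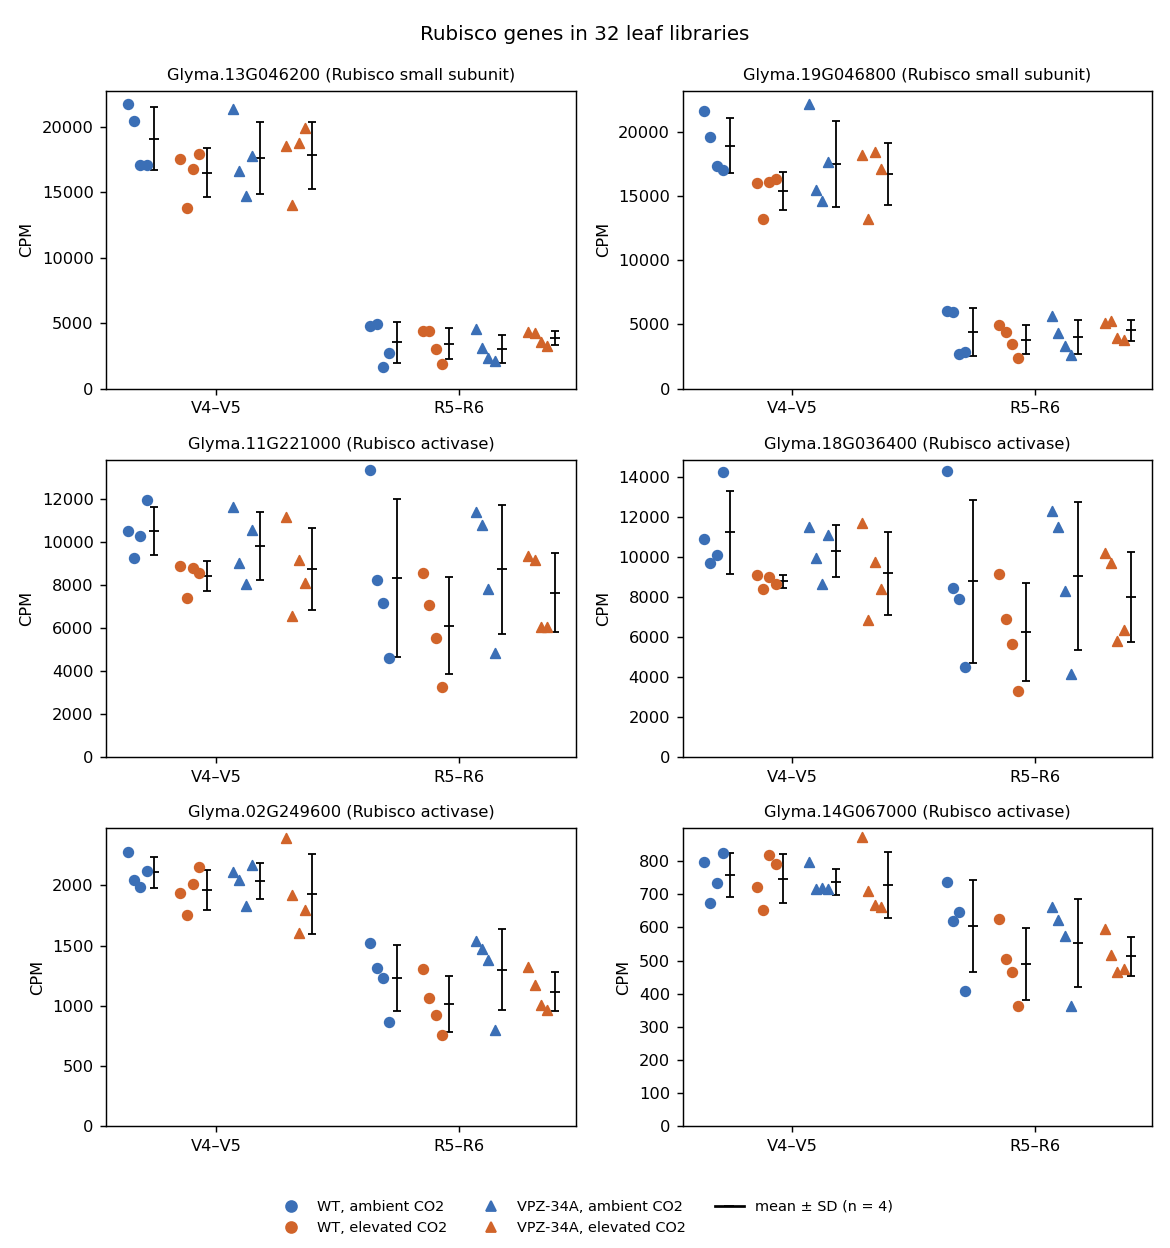
CPM (linear axis from 0) of the 6 genes in the 32 libraries. Each point is 1 library, ordered by ring number within its group, circles are WT and triangles VPZ-34A, blue is a[CO2] and orange e[CO2], and bars give the mean ± SD of 4 rings. Both RBCS genes have no library at R5–R6 within reach of V4–V5, whereas Glyma.11G221000 and Glyma.18G036400 overlap between stages and spread more widely at R5–R6.

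For Glyma.13G046200 at V4–V5, WT had 21722, 20461, 17074 and 17032 CPM in rings 1, 2, 4 and 7 at a[CO2] and 17500, 13787, 16754 and 17924 CPM in rings 3, 5, 6 and 8 at e[CO2]. VPZ-34A had 21308, 16584, 14723 and 17768 CPM at a[CO2] and 18551, 14051, 18768 and 19883 CPM at e[CO2], in the same order of rings. At this stage ring 1 was highest in both lines and ring 5 was lowest in both. At R5–R6, WT had 4769, 4951, 1691 and 2714 CPM at a[CO2] and 4374, 4372, 3044 and 1906 CPM at e[CO2]. VPZ-34A had 4548, 3115, 2368 and 2149 CPM at a[CO2] and 4344, 4242, 3546 and 3279 CPM at e[CO2]. The lowest V4–V5 library, at 13787 CPM, was 2.78 times the highest R5–R6 library, at 4951 CPM. The log2FC was -2.36 ± 0.148 (SE), with an adjusted p of 2.37e-14 in the edgeR quasi-likelihood test, and the gene was lower at R5–R6 in 16 of 16 sub-plots, with ratios of 0.099 to 0.317.

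The second small subunit gene, Glyma.19G046800, followed the same course. At V4–V5, WT had 21631, 19613, 17381 and 17039 CPM at a[CO2] and 16049, 13183, 16072 and 16368 CPM at e[CO2], and VPZ-34A had 22206, 15483, 14649 and 17672 CPM at a[CO2] and 18188, 13229, 18457 and 17083 CPM at e[CO2]. At R5–R6, WT had 6062, 5949, 2730 and 2895 CPM at a[CO2] and 4973, 4434, 3460 and 2381 CPM at e[CO2], and VPZ-34A had 5667, 4347, 3337 and 2635 CPM at a[CO2] and 5146, 5303, 3929 and 3777 CPM at e[CO2]. The stages did not overlap, and the lowest V4–V5 library was 2.17 times the highest R5–R6 library. The log2FC was -2.03 ± 0.137 (SE), with an adjusted p of 1.17e-13 in the edgeR quasi-likelihood test and ratios of 0.145 to 0.401 in the 16 sub-plots.

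By group means, Glyma.13G046200 was lower at R5–R6 by 5.4 times in WT at a[CO2], 4.82 times in WT at e[CO2], 5.78 times in VPZ-34A at a[CO2] and 4.62 times in VPZ-34A at e[CO2]. For Glyma.19G046800 these values were 4.29, 4.04, 4.38 and 3.69 times. In either line, both genes had the smaller ratio at e[CO2]. The difference between the stage effects at the CO2 levels did not pass its test, with a log2 difference of 0.24 ± 0.281 (SE) and 0.17 ± 0.264 and adjusted p of 0.912 and 0.941 by edgeR.

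The proportion of the RBCS genes to one another also differed between stages. The ratio of Glyma.19G046800 to Glyma.13G046200 was 0.966 ± 0.0456 (SD, n = 16 libraries) at V4–V5, with a range of 0.859 to 1.04, and 1.23 ± 0.147 at R5–R6, with a range of 1.01 to 1.61. The highest ratio, 1.61, was in WT ring 4 at a[CO2], where Glyma.13G046200 had its lowest value of all 32 libraries. This ratio is taken within libraries and does not depend on the scaling of library sizes. It may depend on how reads with several alignments were divided between near-identical copies. The difference in the ratio was not tested.

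The activase genes formed 2 pairs by read count. Glyma.11G221000 and Glyma.18G036400 together took 83.6% to 92.4% of the reads of the 4 RCA genes, without correction for length, and their ratio to one another was 0.962 ± 0.0575 (SD, n = 32), with a range of 0.84 to 1.17. In Glyma.11G221000 the lowest, median and highest values were 6578, 9088 and 11958 CPM at V4–V5 against 3274, 7494 and 13329 CPM at R5–R6. In Glyma.18G036400 they were 6875, 9738 and 14240 CPM at V4–V5 against 3297, 8098 and 14330 CPM at R5–R6. For both genes the R5–R6 libraries reached below and above the range of V4–V5, so that the stages overlapped on either side. The log2FC was -0.29 ± 0.145 (SE) with an adjusted p of 0.0729 for Glyma.11G221000 and -0.31 ± 0.158 with 0.0806 for Glyma.18G036400, by edgeR. Glyma.11G221000 was lower at R5–R6 in 13 of 16 sub-plots and Glyma.18G036400 in 11.

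These 2 results were near the threshold, and each of the 2 genes was called in 3 of 17 alternative analyses, given next. Limma-voom, with no ring term, called both genes, at a log2FC of -0.35 (adjusted p = 0.0307) for Glyma.11G221000 and -0.38 (adjusted p = 0.0305) for Glyma.18G036400. With the ring as a fixed replicate block in edgeR, which the shared plots allow, both genes passed and all 6 genes were called, with a log2FC of -0.34 (adjusted p = 0.0197) for Glyma.11G221000 and -0.38 (adjusted p = 0.0233) for Glyma.18G036400, by edgeR. Without ring 1 all 6 were also called, with -0.38 and -0.43, whereas without ring 7 the values were -0.15 and -0.13 and neither passed. Of all genes tested, 38.2% were called lower at R5–R6 with limma-voom, 38.6% with the block and 36.8% without ring 1, so that such calls were common.

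At R5–R6, Glyma.18G036400 had 14330, 8446, 7892 and 4538 CPM in WT in rings 1, 2, 4 and 7 and 9181, 6930, 5652 and 3297 CPM in rings 3, 5, 6 and 8, and in VPZ-34A 12304, 11494, 8303 and 4143 CPM and 10218, 9710, 5809 and 6364 CPM. Within each of these 4 groups the highest library had 1.76 to 3.16 times the CPM of the lowest, while the group means, 8801 and 6265 CPM in WT and 9061 and 8025 CPM in VPZ-34A, were closer together. By group means this gene was lower at R5–R6 by 1.28 and 1.4 times in WT at a[CO2] and e[CO2] and by 1.14 and 1.15 times in VPZ-34A, and Glyma.11G221000 by 1.26, 1.37, 1.12 and 1.14 times. The difference of the stage effect between the lines was 0.23 ± 0.316 (SE) on the log2 scale for Glyma.18G036400 and 0.22 ± 0.289 for Glyma.11G221000, with an adjusted p of 0.959 for each by edgeR.

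The pair with fewer reads changed with the stage in all sub-plots. Glyma.02G249600 had lowest, median and highest values of 1607, 2027 and 2393 CPM at V4–V5 against 755, 1204 and 1539 CPM at R5–R6. The stages did not overlap, although the gap was narrow, the lowest V4–V5 library being 1.04 times the highest R5–R6 library. Its log2FC was -0.79 ± 0.0964 (SE), with an adjusted p of 2.13e-08 by edgeR, and it was lower in 16 of 16 sub-plots, with ratios of 0.351 to 0.754. Glyma.14G067000 had 654, 722 and 874 CPM at V4–V5 against 362, 545 and 738 CPM at R5–R6, and its stages overlapped. Its log2FC was -0.46 ± 0.0901 with an adjusted p of 3.8e-05 by edgeR, and it too was lower in 16 of 16 sub-plots, with ratios of 0.458 to 0.923. At V4–V5 the group means of Glyma.02G249600 were 2108 ± 127 CPM (SD, n = 4) in WT at a[CO2], 1963 ± 165 in WT at e[CO2], 2037 ± 149 in VPZ-34A at a[CO2] and 1930 ± 335 in VPZ-34A at e[CO2], and at R5–R6 they were 1232 ± 275, 1011 ± 233, 1298 ± 337 and 1118 ± 164 CPM. For Glyma.14G067000 they were 759 ± 67.1, 747 ± 74.2, 738 ± 39.9 and 728 ± 99.7 CPM at V4–V5, and 603 ± 139, 490 ± 109, 554 ± 133 and 513 ± 59.1 CPM at R5–R6. Within a stage the groups of either gene overlapped. Among genes of a mean CPM of 10 or more, 11.1% had all R5–R6 libraries below all V4–V5 libraries, as 3 of the 6 genes here did.

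The proportion within this pair differed too. The ratio of Glyma.02G249600 to Glyma.14G067000 was 2.71 ± 0.175 (SD, n = 16) at V4–V5, with a range of 2.4 to 3.03, and 2.15 ± 0.14 at R5–R6, with a range of 1.9 to 2.4, so that the stages met at about 2.4. In the high-count pair the ratio of Glyma.11G221000 to Glyma.18G036400 was 0.95 ± 0.0454 at V4–V5 against 0.975 ± 0.0665 at R5–R6, with overlapping ranges. In both pairs the members correlated across libraries after the means of the 8 groups were taken out, with r = 0.954 for the low-count and r = 0.985 for the high-count pair over 32 libraries. These libraries share rings, and reads of near-identical copies may have been divided between the members of a pair. The ratios and correlations are therefore given as a description.

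With the larger change of the RBCS genes, the balance of reads between the 2 RBCS and the 4 RCA genes shifted. The summed CPM of the 2 RBCS genes was 34887 ± 4849 (SD, n = 16) at V4–V5 against 7652 ± 2282 at R5–R6, and that of the 4 RCA genes was 22006 ± 3391 and 17453 ± 6127. The quotient of these sums was 1.6 ± 0.193 at V4–V5, with a range of 1.17 to 1.95, and 0.458 ± 0.102 at R5–R6, with a range of 0.261 to 0.585. The quotient was lower at R5–R6 in 16 of 16 sub-plots, by 2.17 to 5.71 times with a median of 3.3 times. It compares reads and not molecules, since the lengths of the transcripts were not used, and genes with more reads weigh more in each sum. The sums hold only the listed genes, and other members of the families were not identified here. Glyma.19G046600, whose level cannot be told apart with certainty from that of Glyma.19G046800, is in neither sum. Its stage log2FC was -2.06. The lowest quotient at R5–R6, 0.261, was again that of WT ring 4. As a share of all counts, before any scaling of library sizes, the 6 genes took 4.25% to 5.97% of a V4–V5 library and 1.46% to 4.17% of an R5–R6 library. The share of the 2 RBCS genes was 3.13% ± 0.343 (SD, n = 16) at V4–V5 against 0.841% ± 0.223 at R5–R6. That of the 4 RCA genes was 1.97% ± 0.218 and 1.91% ± 0.601.

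**Figure D2:**
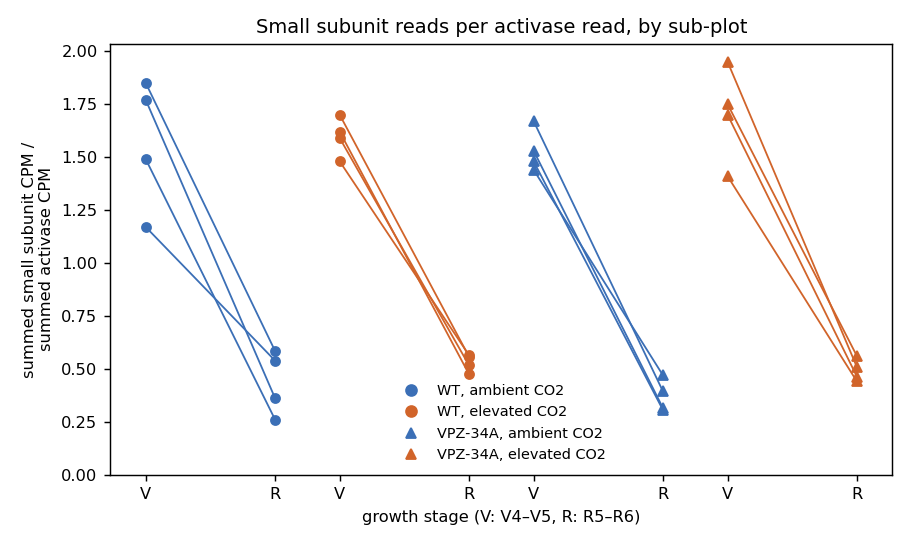
Summed CPM of the 2 RBCS genes divided by the summed CPM of the 4 RCA genes (linear axis from 0) at V4–V5 (V) and R5–R6 (R). Each line joins the 2 libraries of 1 sub-plot, with circles for WT, triangles for VPZ-34A, blue for a[CO2] and orange for e[CO2]. All 16 lines go down, from between 1.17 and 1.95 to between 0.261 and 0.585.

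The RCA result depended on how library sizes were scaled. TMM factors were below 1 in all V4–V5 libraries, from 0.823 to 0.98, and above 1 in all R5–R6 libraries, from 1.02 to 1.22. Without them, the median log2FC of all genes moved from 0.01 to 0.31 and the calls from 13354 higher and 13445 lower to 18753 higher and 9390 lower. On that scale Glyma.11G221000 had a log2FC of 0.0027 and Glyma.18G036400 of -0.02, and Glyma.14G067000, at -0.17 with an adjusted p of 0.0586 by edgeR, was no longer called. All 4 RCA genes were thus below the median of all genes on either scale, and the RBCS genes, at -2.07 and -1.74 without scaling, were called on both.

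The rings differed more at R5–R6 than at V4–V5. The within-group SD of log2(CPM + 1) was 0.221 for Glyma.11G221000 and 0.226 for Glyma.18G036400 at V4–V5, where the median of the 15639 genes of a mean CPM of 10 or more was 0.21. At R5–R6 the SD was 0.549 and 0.62, against a median of 0.248, and 92.1% and 94.7% of those genes had a smaller SD. The RBCS genes went from 0.201 and 0.205 to 0.534 and 0.478, and Glyma.02G249600 and Glyma.14G067000 from 0.152 and 0.14 to 0.341 and 0.325. The difference in spread was not tested.

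This spread followed the rings in both lines. At R5–R6, WT had 13329, 8246, 7156 and 4606 CPM of Glyma.11G221000 in rings 1, 2, 4 and 7 and 8574, 7089, 5555 and 3274 CPM in rings 3, 5, 6 and 8, and VPZ-34A had 11404, 10807, 7833 and 4866 CPM and 9367, 9159, 6051 and 6051 CPM. Ring 1 was highest and rings 6, 7 and 8 were the lowest in each line, for this gene and for all RCA genes (8 of 8 orders of rings, over 4 genes and the lines). None of the 8 orders of the RCA genes at V4–V5 had rings 6, 7 and 8 as the lowest, nor did any of the 4 orders of the RBCS genes at R5–R6, of which 3 had ring 1 highest. At V4–V5 it was ring 5 that was lowest for Glyma.11G221000, Glyma.18G036400 and both RBCS genes, in both lines (8 of 8 orders). These patterns were picked from the same values, in genes whose levels correlated, so that the counts are a description. How many other genes had them was not counted. The totals of ring 5 at V4–V5 were 16870301 in WT, the lowest of that stage, and 55755989 in VPZ-34A, the highest, and its TMM factors were 0.974 and 0.98, the highest of that stage. Their part in its low values was not tested. Of the rings lowest at R5–R6, ring 7 was at a[CO2] and rings 6 and 8 at e[CO2].

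By ring, with the lines averaged, the R5–R6 level of Glyma.18G036400 was 0.343 of the V4–V5 level in ring 7, 0.566 in ring 8 and 0.61 in ring 6, and 1.19 in ring 1, 1.09 in ring 5 and 1.01 in ring 2. For Glyma.11G221000 the ratio ran from 0.421 in ring 7 to 1.16 in ring 5. The RBCS ratios also differed between rings but never reached 1, with 0.128 (ring 4) to 0.309 (ring 5) for Glyma.13G046200 and 0.159 (ring 7) to 0.369 (ring 5) for Glyma.19G046800. For Glyma.02G249600 the ratio was 0.388 in ring 7 and 0.697 in ring 1, and for Glyma.14G067000 it was 0.5 in ring 7 and 0.892 in ring 2.

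**Figure D3:**
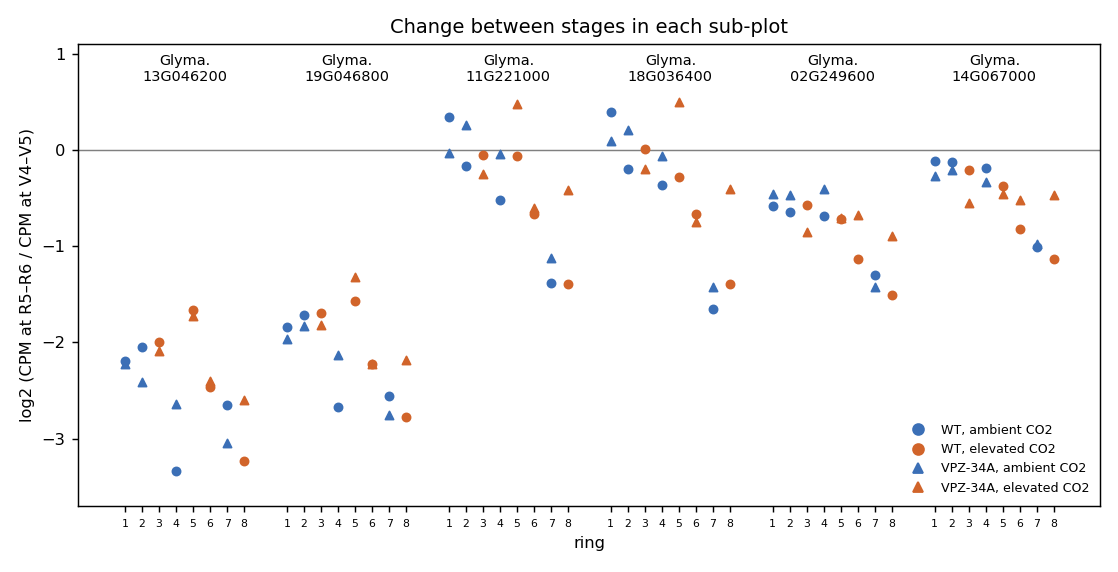
Log2 ratio of CPM at R5–R6 to CPM at V4–V5 (vertical axis) in each ring (horizontal axis, rings 1 to 8 repeated for each gene), with 1 point per sub-plot, circles for WT, triangles for VPZ-34A, blue for a[CO2] and orange for e[CO2]. The grey line marks no change. All points of the RBCS genes, Glyma.02G249600 and Glyma.14G067000 lie below it, and ring 7 has the lowest ratio, over both lines, for 5 of the 6 genes.

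The CO2 comparison asked whether e[CO2] altered the transcripts of the enzyme and its activase. None of the 6 genes passed at V4–V5, where 0.199% of the 33689 genes tested were called, and the 6 log2FC values were all below 0, from -0.25 to -0.01, with a median of -0.13 against 0.00 over all genes. At an unadjusted p under 0.05 edgeR had 1 of the 6 and 3634 of all genes tested, limma-voom 2 of the 6 and 3647 genes, and DESeq2 2 of the 6 and 3768 genes, with 0 of the 6 called by either after adjustment. In this test the WT and VPZ-34A libraries of a ring were counted as separate although the CO2 level was applied to the ring. Per the study's methods, each field block paired a plot at a[CO2] with a plot at e[CO2]. The labels do not assign rings to blocks, so the CO2 levels were compared at both stages without this pairing. The 2 high-count RCA genes had the largest differences. Glyma.18G036400, the gene under 0.05 before adjustment, had a log2FC of -0.25 ± 0.12 (SE) with an adjusted p of 0.458 by edgeR, and Glyma.11G221000 one of -0.24 ± 0.118 with an adjusted p of 0.492.

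In WT at V4–V5, Glyma.18G036400 had 10905, 9696, 10128 and 14240 CPM in rings 1, 2, 4 and 7 at a[CO2] and 9096, 8418, 8997 and 8670 CPM in rings 3, 5, 6 and 8 at e[CO2], and the CO2 levels did not overlap. In VPZ-34A it had 11536, 9962, 8662 and 11093 CPM at a[CO2] and 11701, 6875, 9780 and 8406 CPM at e[CO2], which did overlap. Glyma.11G221000 had 10523, 9267, 10274 and 11958 CPM in WT at a[CO2] and 8893, 7389, 8803 and 8560 CPM at e[CO2], again without overlap, and overlapped in VPZ-34A, with 8045 to 11627 CPM and 6578 to 11144 CPM. Glyma.19G046800, with the values given above, was the third gene without overlap in WT. Such an absence of overlap with e[CO2] lower was found in WT for 3 of the 6 genes and for 3.91% of the 15639 genes of a mean CPM of 10 or more, and in VPZ-34A for 0 of the 6 and 1.55%. The line by CO2 interaction at V4–V5 passed for none of the 6 genes and for 0% of all genes, with log2 differences of 0.00 to 0.23 and adjusted p of 1 by edgeR, so that a difference between the lines in this response was not shown. With lines averaged within rings, and without the pairing by block, the 4 rings at a[CO2] and the 4 at e[CO2] overlapped for all 6 genes.

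At R5–R6 none of the 6 genes passed the CO2 test, and of all 33200 genes tested 0% did in the edgeR test, which had 4466 at an unadjusted p under 0.05 and none of the 6 among them. DESeq2 called 619 genes, again none of the 6. All 4 RCA genes had values below 0, with a log2FC of -0.25 ± 0.166 (SE) for Glyma.02G249600, -0.21 ± 0.157 for Glyma.14G067000, -0.32 ± 0.255 for Glyma.11G221000 and -0.34 ± 0.281 for Glyma.18G036400. The adjusted p of these genes was 0.53 to 0.629 by edgeR. The RBCS genes were at 0.14 ± 0.243 and -0.02 ± 0.226, with adjusted p of 0.836 and 0.983. At R5–R6 the ranges of CPM at the CO2 levels overlapped for all 6 genes in both lines, so that 0 of the 6 had e[CO2] lower without overlap, against 1.13% of genes in WT and 4.25% in VPZ-34A. The 95% intervals of the 6 genes lay within -0.51 and 0.17 on the log2 scale at V4–V5 and were wider at R5–R6, within -0.94 and 0.66. Without ring 1, which was at a[CO2] and had the highest RCA values, the log2FC at R5–R6 was -0.09 for both Glyma.11G221000 and Glyma.18G036400, and with each ring left out in turn the lowest values were -0.52 and -0.56. The difference of the CO2 effect between stages passed for none of the 6 genes and 0% of all genes.

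**Figure D4:**
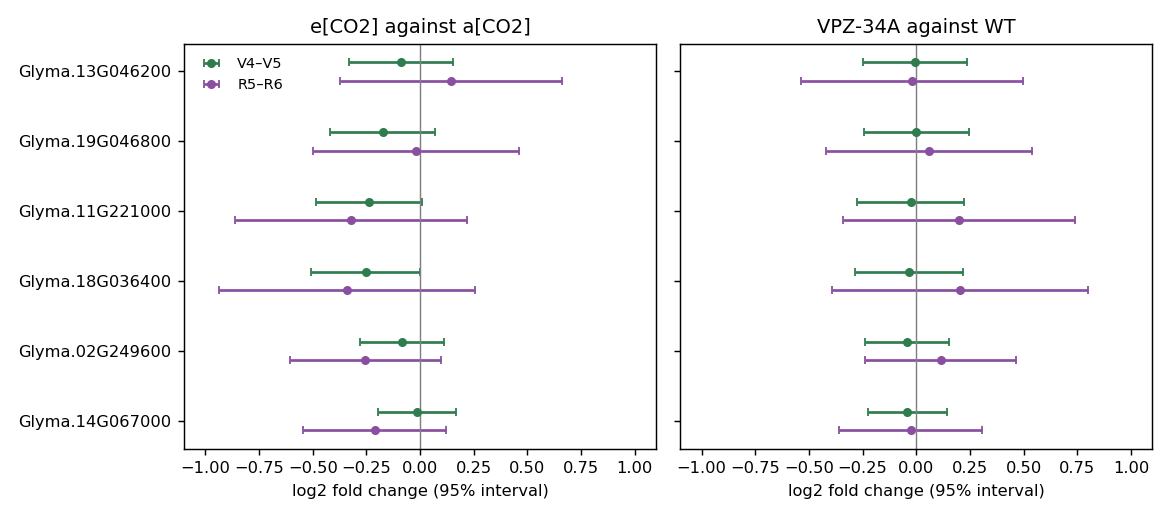
Log2 fold change of the 6 genes for e[CO2] against a[CO2] (left) and for VPZ-34A against WT (right), at V4–V5 (green) and R5–R6 (purple). Points are edgeR estimates from 16 libraries per stage and bars 95% intervals. All bars are wider at R5–R6, and the bar that leaves out 0 is that of Glyma.18G036400 for CO2 at V4–V5, which did not pass after adjustment.

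The line comparison asked whether the transgenes altered these genes. None of the 6 passed at either stage, where 0.0653% of genes were called at V4–V5 against 0.0904% at R5–R6, and none of the 6 had an unadjusted p under 0.05 by edgeR, limma-voom or DESeq2. Of the 33689 genes tested at V4–V5, 1152 were under 0.05 by edgeR, 1087 by limma-voom and 1193 by DESeq2. Of the 33200 tested at R5–R6, 2494, 2310 and 2824 were. At V4–V5 the log2FC of VPZ-34A against WT was between -0.04 and 0.00 for all 6 genes, with 95% intervals within -0.29 and 0.25. At R5–R6 the values were between -0.02 and 0.20, with intervals within -0.54 and 0.80. The largest were those of Glyma.18G036400, 0.20 ± 0.281 (SE, adjusted p = 0.874, edgeR), and Glyma.11G221000, 0.20 ± 0.255 (adjusted p = 0.864, edgeR). At R5–R6 VPZ-34A was higher than WT in 7 of 8 rings for Glyma.11G221000, in 6 for Glyma.18G036400, in 7 for Glyma.02G249600, in 3 for Glyma.14G067000, in 3 for Glyma.13G046200 and in 5 for Glyma.19G046800. At V4–V5 it was higher in 3 to 6 of 8 rings for the 6 genes. The line by CO2 interaction at R5–R6 passed for none of the 6 genes and 0% of all genes, with log2 differences of 0.07 to 0.39. The difference of the line effect between stages likewise passed for none of the 6 and 0% of all genes. In these tests of differences edgeR had 549 and 801 genes at an unadjusted p under 0.05 for the interaction at V4–V5 and R5–R6, 2606 for the stage by CO2 and 1932 for the stage by line difference, and none of the 6 was among them, nor was any under 0.05 by limma-voom or DESeq2.

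The genes whose levels were most like those of the 6 were found from 15633 other genes of a mean CPM of 10 or more, by the correlation of log2(CPM + 1) over 32 libraries after the 8 group means were taken out. These correlations describe libraries that share rings. For Glyma.19G046800 the nearest was Glyma.19G046600 (r = 0.999), whose CPM was 1.03 to 1.09 times that of Glyma.19G046800 in every library, the next Glyma.06G039700 (r = 0.959). With reads of several alignments divided between loci, the levels of Glyma.19G046800 and Glyma.19G046600 cannot be told apart with certainty. For Glyma.13G046200 the nearest were Glyma.11G042200 (r = 0.978) and Glyma.09G071400 (r = 0.966). Both high-count RCA genes had Glyma.03G230000 first (r = 0.978 for Glyma.11G221000 and 0.968 for Glyma.18G036400) and Glyma.08G175800 second (r = 0.959 and 0.961). The nearest to Glyma.02G249600 were Glyma.11G255300 (r = 0.93) and Glyma.03G230000 (r = 0.92), and the nearest to Glyma.14G067000 were Glyma.08G175800 (r = 0.913) and Glyma.12G009700 (r = 0.912). The stage log2FC of Glyma.03G230000 was -1.19 and that of Glyma.08G175800 -0.91, further below 0 than those of the RCA genes whose ring to ring pattern they shared. Between the families the correlations were lower than within the pairs, from r = 0.553 for Glyma.14G067000 and Glyma.13G046200 to r = 0.864 for Glyma.11G221000 and Glyma.19G046800.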

How the data were processed

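Leaf RNA of 32 samples was sequenced from stranded poly(A) libraries. Per the submitters' processing notes and the study's methods, the authors trimmed reads with Trimmomatic 0.39, used STAR 2.7.10a to align them to Wm82.a4.v1 (soybean) plus the 3 transgene sequences, and counted them with featureCounts (Subread 2.0.4). The strand setting is not given in the sources used here. The deposited values are estimated counts per gene without normalisation, in which reads of several alignments were assigned as fractions. All columns were mapped to samples by title. ComBat-seq, which the authors applied to field blocks, was not used here because the labels do not assign rings to blocks.

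Estimated counts were rounded, genes filtered with filterByExpr, and libraries scaled with TMM. Line, CO2 and their interaction were tested per stage, and stage effects in a group-mean model over all 32 libraries and 8 groups, by the edgeR 4.0.16 quasi-likelihood test (R 4.3.3) and Benjamini-Hochberg adjustment over all genes tested. A call is an adjusted p under 0.05. The SE is the size of the log2FC divided by the square root of the test statistic, and 95% intervals use the t quantile of the fit's degrees of freedom. Alternatives used limma 3.58.1 and DESeq2 1.42.0, other scaling and filters, unrounded counts, the ring as a block (fixed in edgeR, random in limma-voom for CO2), ring totals, both stages in one model, and each ring left out. On simulated counts 98% to 100% of 200 changed genes were recovered for stage, CO2 and line, and 5 to 11 genes were called wrongly. The simulated libraries were independent, with the same dispersion for all genes and no ring effect. These rates may therefore not hold for the real libraries, in which rings are shared and the spread differs between genes. The recovery of differences as small as those of the 6 genes for CO2 and line was not tested.

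The labels give replicate numbers R1 to R8, and each was read here as 1 field plot (ring) at both stages, which the labels do not state. On that reading the rings pair the lines and stages. After group means were taken out, WT and VPZ-34A of one ring correlated across genes, with r from -0.118 to 0.522 (median 0.256) in July and from 0.00537 to 0.674 (median 0.468) at R5–R6. None of the 48 pairs of libraries within groups agreed within sampling noise. The labels do not name separate extractions beyond the replicate number, and p-values measure the spread between rings within groups. The main fits had no ring term, so that the lines and stages of a ring were counted as separate. The 6 genes and the tests were chosen with earlier results of these data known. The named genes are these 6 and, for each, the 2 other genes of a mean CPM of 10 or more with the highest correlation. Lists of other photosynthesis genes and leaf markers by product name, gene lengths, promoters and protein sequences were not used here, because the soybean identifiers of the table could not be matched to the names available, so that the tissue label was not checked against markers.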

Additional observations from a re-analysis of the deposited data

Results flagged for a closer look

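Of the 48 sets of 4 libraries (6 genes in 8 groups), 2 held a library that stood apart by the gap to its nearest neighbour, and chance alone gives about 1 in 20 sets. For Glyma.19G046800 in WT at e[CO2] and V4–V5, ring 5 had 13183 CPM and the other rings 16049 to 16368 CPM. Ring 5 was also the lowest ring for this gene in VPZ-34A at V4–V5. For Glyma.14G067000 in VPZ-34A at a[CO2] and V4–V5, ring 1 had 798 CPM and the other rings 715 to 720 CPM.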

How the results depend on the processing

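For the stage effect, 4 of the 6 genes were called, against 6 with limma-voom without a ring term and 6 with the ring as a fixed replicate block in edgeR. With each ring left out in turn 4 were called, except for 6 without ring 1. Of all genes tested, 37.7% were called lower at R5–R6 in the main fit and 38.2% with limma-voom. With the block the share was 38.6%, and without ring 1 it was 36.8%. No other call among the 6 genes differed with the block, for which the ring was a random term in limma-voom in the CO2 tests. Glyma.11G221000 turned to 0.0027 without scaling factors, and 3 of the 6 genes were then called, with 26.3% of all genes called lower. Glyma.13G046200, Glyma.19G046800 and Glyma.02G249600 were called under all 17 alternatives. In the other comparisons 0 of the 6 were called under any alternative run. Values near 0 changed sign. For CO2 at V4–V5, Glyma.14G067000 was at 0.065 without scaling factors, 0.0051 with ring totals and -0.052 to 0.017 with each ring left out. For CO2 at R5–R6, Glyma.19G046800 was at 0.0088 with limma-voom, 0.0040 with upper-quartile factors, 0.053 without scaling factors, 0.011 with the replicate block, 0.0035 with ring totals and -0.17 to 0.18 with each ring left out, and Glyma.13G046200 at -0.016 to 0.36 with each ring left out. The cause of these changes was not tested. For the line effect at V4–V5 all 6 genes changed sign under at least 1 of 18 alternatives.

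Counts over all genes moved more. DESeq2 called 473 genes for CO2 at V4–V5 (67 by edgeR), 619 for CO2 at R5–R6 (0), 42 and 121 for line at V4–V5 and R5–R6 (22 and 30), 31 and 6 for the differences of the CO2 and line effects between stages, and 1 for the interaction at each stage (0). For CO2 at V4–V5 there were 105 without scaling factors, 7 with both stages in one model, 24 with the replicate block, 1 with ring totals and 15 to 78 with each ring left out. For CO2 at R5–R6 there were 258 with both stages in one model, 518 without ring 7 and 187 without ring 3. For line there were 6 and 9 with at least 10 counts in every library, 69 at R5–R6 with both stages in one model, and 15 to 40 at R5–R6 with each ring left out. For the stage by CO2 difference there were 2 with the replicate block, 1 with at least 10 counts in every library and 39 without ring 7. For the stage by line difference there was 1 with limma-voom. The depth of the libraries gave at least 7957 counts for each of the 6 genes.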
